A study of Homo sapiens with 17 samples.

Results

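Lamina-associated domains (LADs) that lay under regions of H3K27me3 loss over at least 50% of their length are described here. They were chosen from the LAD list on chromosomes 1 to 22 by the share of their base pairs under the deposited list of H3K27me3 canyons, so their canyon cover is a description of the choice and is not tested. The choice gave 814 of 2001 autosomal LADs (40.7%), out of 2054 LADs on all chromosomes. They are called canyon-covered LADs below, and the remaining 1187 are called the other LADs. The name holds as a statement about the lists only: the lists give positions, not the strength of any mark.

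The libraries came from IMR90, a line of human lung fibroblasts that enters senescence after serial passage. Senescent cells at population doubling 87, kept 2 further weeks, were set against proliferating cells at doubling 24. Ras-induced cells at doubling 15 were set against control cells at doubling 15. The Ras-induced cells carried a retroviral ER:Ras construct (pLNC-ER:Ras) that responds to 4-hydroxytamoxifen, and a treatment with 100 nM is recorded for them. Chromatin immunoprecipitation and sequencing gave 17 libraries: for H3K27me3, 2 senescent and 4 proliferating; for H3K4me3, 1 each of Ras-induced, control, senescent and proliferating cells; for lamin B1, 1 of proliferating cells; and for histone H3, 2 senescent, 2 proliferating, 1 Ras-induced and 1 control. LADs were therefore mapped in proliferating cells only, and H3K27me3 change in replicative senescence only. The Ras-induced cells and their controls differ from the lamin B1 cells in doubling and medium. Whether the control cells carried the construct or received 4-hydroxytamoxifen is not given in the sources used here.

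LADs are long stretches of chromatin that touch the nuclear lamina, the filament layer under the nuclear membrane; they usually hold few genes and little transcription, and lamin B1, a main part of that layer, is known to decline in senescent fibroblasts. H3K27me3 is written by Polycomb repressive complex 2 and marks silenced chromatin, and H3K4me3 is written by enzymes of the COMPASS family and marks active promoters. The study calls a wide region that has lost a mark in senescent cells a canyon, and one that has gained it a mesa. The file headers state a direction for the replicative H3K4me3 list alone, so the direction of the other lists is taken from their names. No signal, count or replicate value was in the lists, so the depth is unknown, no error between cultures can be given, and every comparison below is between lists with no test.

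Canyon cover of LADs was close to all or nothing. Of the 814 canyon-covered LADs, 574 (70.5%) were covered completely, 121 to at least 90% but not completely, and 119 to between 50% and 90%. Among the other LADs, 694 (58.5%) met no canyon at all, 285 were covered to less than 10% and 208 to between 10% and 50%. The choice at 50% cut through a thinly filled range, with 24 LADs at 50 to 60% and 32 at 40 to 50%. Just inside it were a LAD of 1570 kb on chromosome 6 at 28470001 to 30040000 with 50.01% cover and a LAD of 860 kb on chromosome 3 at 38260001 to 39120000 with 50.3%. Just outside were a LAD of 620 kb on chromosome 18 at 16950001 to 17570000 with 49.98% and one of 240 kb on chromosome 22 at 37660001 to 37900000 with 49.1%. The canyon-covered LADs totalled 364 Mb, which is 21.3% of autosomal LAD base pairs, and held 85.3% of the canyon base pairs that fell in autosomal LADs.

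**Figure D1:**
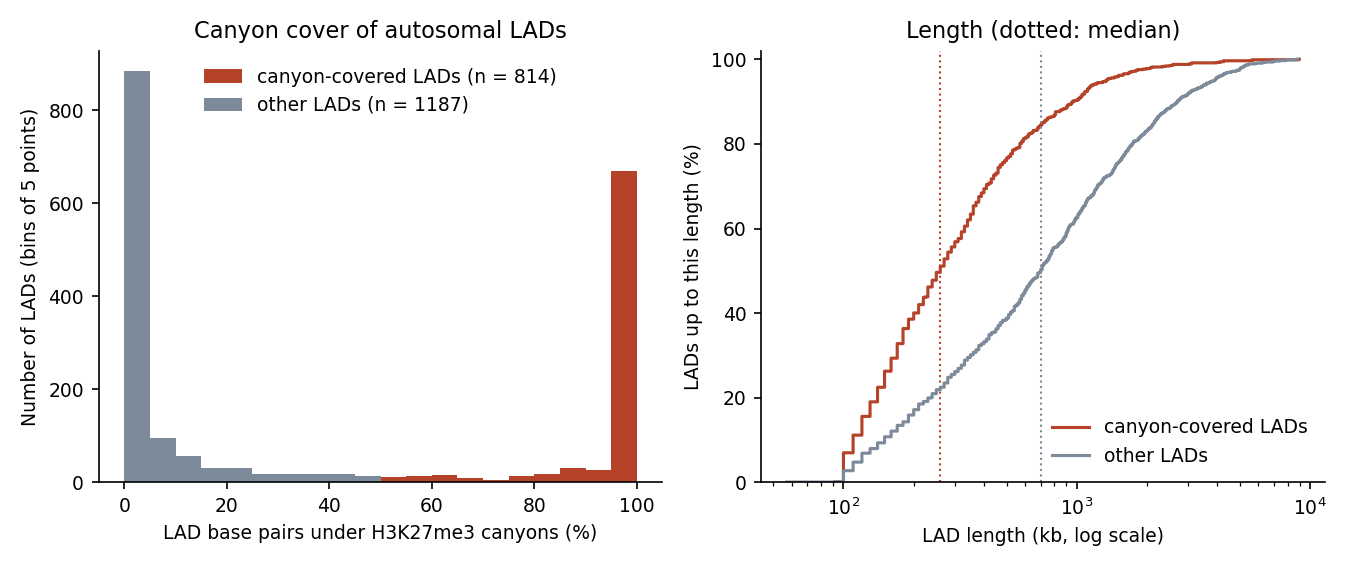
Left, number of autosomal LADs by the percentage of their base pairs under H3K27me3 canyons, for the 814 canyon-covered LADs and the 1187 other LADs stacked in bins of 5 points. Right, the cumulative percentage of each set against LAD length in kb on a log scale, with medians of 260 kb (canyon-covered LADs) and 700 kb (other LADs) dotted; cover gathers near 100% and near 0%, and the curve of the canyon-covered LADs lies to the left.

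H3K27me3 mesas, the gains of the same mark, were nearly absent from them. Only 22 of 814 canyon-covered LADs touched an H3K27me3 mesa, over at most 14.5% of their length, and 0 were covered by mesas to 50%, against 13.4% of all autosomal LADs. Gain and loss lists of the same mark hardly overlap, so the choice by canyons leaves little room for mesas and nothing is read from this count.

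Every autosome carried canyon-covered LADs, in shares that ranged widely. Chromosome 13 had the highest share, 47 of 69 LADs (68.1%), followed by chromosome 2 with 90 of 167 (53.9%), chromosome 15 with 29 of 57 (50.9%) and chromosome 4 with 71 of 143 (49.7%). Chromosome 16 had the lowest, 8 of 57 (14.0%), and chromosomes 21, 20 and 22 had 20.0%, 21.6% and 22.2%. The median over 22 autosomes was 38.1%. Chromosome 17 had 37 of 76 (48.7%), chromosome 18 had 17 of 51 (33.3%) and chromosome 19 had 15 of 51 (29.4%). The shares were not compared by gene density.

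Canyon-covered LADs were short. Their median length was 260 kb (quartiles 150 and 470 kb), and that of the other LADs 700 kb (quartiles 290 and 1470 kb). Of LADs under 200 kb, 314 of 503 (62.4%) were canyon-covered. The share was 305 of 572 (53.3%) at 200 to 500 kb, 116 of 402 (28.9%) at 500 to 1000 kb and 79 of 524 (15.1%) from 1000 kb upwards. Each longer class thus held a smaller share. A short LAD can be filled by a canyon of modest length, so length is not independent of the way these LADs were chosen, and no test of it was made.

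The ranges of length overlapped, and the longest LAD on any autosome was a canyon-covered one. It ran 8.98 Mb on chromosome 5 at 21820001 to 30800000 and lay inside a canyon of 18.5 Mb at 16593701 to 35127999, which also contained the LAD of 4.26 Mb next to it at 17480001 to 21740000. The next longest, of 5.69 Mb on chromosome 13 at 86600001 to 92290000 and 5.58 Mb on chromosome 10 at 54060001 to 59640000, lay inside canyons of 16.1 and 10.7 Mb. A LAD of 4.22 Mb on chromosome 4 at 90260001 to 94480000 was inside a canyon of 5.53 Mb. All 5 of these long LADs were covered completely. The shortest canyon-covered LAD measured 94.3 kb and was the last LAD of its chromosome.

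Isolation was measured as the distance to the neighbouring LADs, counted on a grid of 10 kb. The nearer neighbour of a canyon-covered LAD was at a median of 200 kb (quartiles 110 and 360 kb), and that of an other LAD at 150 kb (quartiles 90 and 260 kb). The farther neighbour was at 670 kb (quartiles 360 and 1220 kb) for canyon-covered LADs and 450 kb (quartiles 245 and 940 kb) for the other LADs. The ranges of both sets overlapped over most of their width. The nearer neighbour was at least 500 kb away for 130 canyon-covered LADs (16.0%) and 100 other LADs (8.42%). At 1000 kb the shares were closer, with 25 canyon-covered LADs (3.07%) and 29 other LADs (2.44%).

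The nearer neighbour of canyon-covered LADs was the more distant one by median in each class of length. Nearer neighbours lay at a median of 210 kb for canyon-covered and 150 kb for other LADs under 200 kb long. From 200 to 500 kb the medians were 190 kb for canyon-covered and 140 kb for other LADs, and from 500 to 1000 kb they were 210 kb for canyon-covered and 145 kb for other LADs. From 1000 kb upwards they were 220 kb for canyon-covered and 160 kb for other LADs. The farther neighbour was at a median of 695 kb for canyon-covered and 435 kb for other LADs in the shortest class, and at 580 kb for canyon-covered and 535 kb for other LADs in the longest. The class limits were set after the data were seen.

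**Figure D2:**
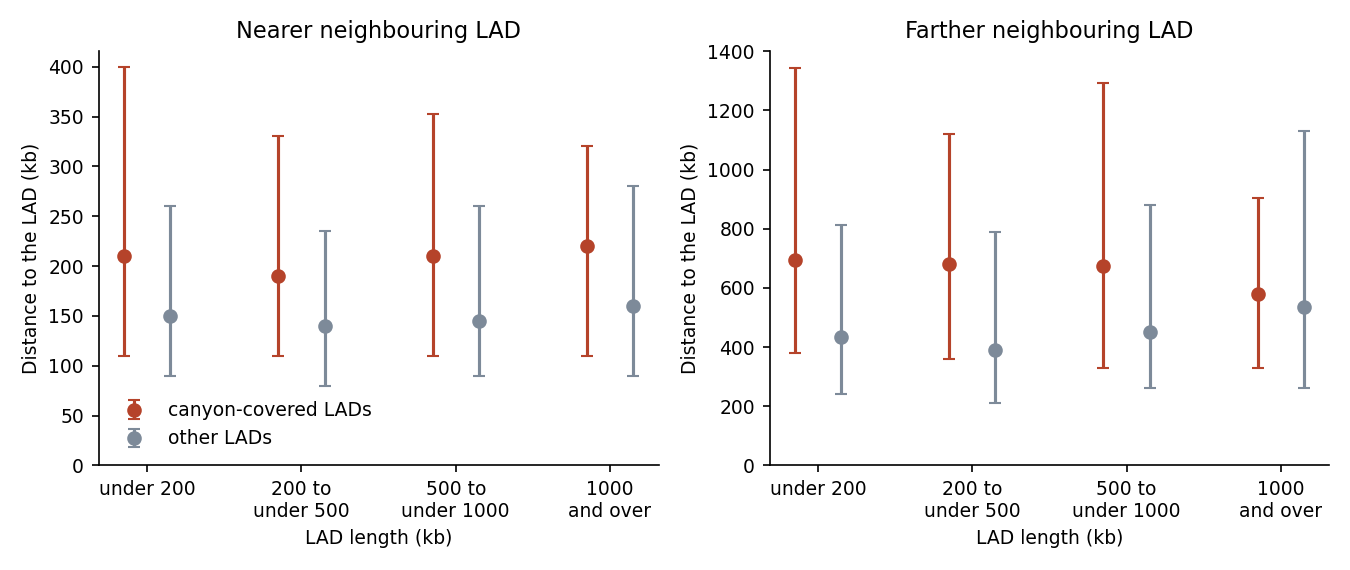
Distance in kb from a LAD to its nearer (left) and farther (right) neighbouring LAD, by LAD length; points are medians and bars run between the quartiles, for canyon-covered LADs and the other LADs. The median distance to the nearer LAD is 190 to 220 kb for canyon-covered LADs and 140 to 160 kb for the other LADs, and the bars overlap in every class.

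The most isolated canyon-covered LADs were small islands in wide LAD-free stretches. A LAD of 0.30 Mb on chromosome 9 at 114690001 to 114990000 had its nearer neighbour 3250 kb away. One of 170 kb on chromosome 15 at 67620001 to 67790000 was 2630 kb from its nearer neighbour, and one of 110 kb on chromosome 2 at 190530001 to 190640000 was 2170 kb away. A longer one, of 730 kb on chromosome 2 at 65780001 to 66510000, stood 2090 kb from the nearer LAD. All 4 were completely inside 1 canyon. The fifth, of 400 kb on chromosome 15 at 39160001 to 39560000, was covered to 89.6%, with its first 41.5 kb outside the canyon.

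Isolation from other LADs did not mean isolation from other canyon-covered LADs. Of the neighbours of canyon-covered LADs, 69.1% were canyon-covered too, and of the neighbours of the other LADs 21.5% were. Neighbouring LADs can lie in the same canyon, so these shares follow in part from the choice and were not tested. Both neighbours were canyon-covered for 396 of 814 (48.6%), exactly 1 for 330 (40.5%) and none for 88 (10.8%). Taken along the chromosomes they formed 253 uninterrupted runs: 88 of a single LAD, 105 of 2 to 4 and 60 of 5 or more, and the 60 longest runs held 443 LADs. The longest run had 16 LADs over 16.7 Mb of chromosome 1 at 181560001 to 198290000. Counting for each LAD only its main canyon, the one that covered most of it, this run had 3 canyons. The next had 15 LADs over 13.2 Mb of chromosome 4 at 101100001 to 114350000, and a run of 13 LADs spanned 16.5 Mb of chromosome 13 at 59630001 to 76140000.

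The sequence between 2 canyon-covered neighbours was mostly canyon as well. There were 561 such gaps, with a median width of 330 kb; 94.7% of their base pairs were under canyons and 469 (83.6%) were filled completely. Among 502 gaps with a canyon-covered LAD on 1 side only, 64.2% of base pairs were under canyons and 156 (31.1%) were full. Among 916 gaps between other LADs, the values were 16.4% and 29 gaps (3.17%). The LADs beside these gaps were sorted by the same canyons, and a gap between LADs of 1 canyon is filled by it. The differences are therefore set in part by the choice, and nothing is read from them.

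A single canyon usually swallowed the LAD. Of the 814, 784 (96.3%) reached 50% cover through 1 canyon alone, and 691 (84.9%) met no second canyon. The 574 completely covered LADs each lay inside 1 canyon, and 524 of them (64.4% of the 814) also had the adjoining 50 kb on both sides inside that canyon. No gap between LADs was narrower than 60 kb, so these flanks were never part of another LAD. The canyon around a completely covered LAD had a median length of 2981 kb, and the LAD took up a median of 9.05% of it (quartiles 4.48% and 18.7%). In 446 of 574 the canyon was at least 5 times as long as the LAD.

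The overhang of the canyon was long on both sides. The shorter of the 2 overhangs had a median of 548 kb (quartiles 224 and 1292 kb) and the longer one a median of 1980 kb (quartiles 927 and 3920 kb). The shorter overhang was 500 kb or more for 306 LADs and 1000 kb or more for 184, and it was under 50 kb for 50. For 344 of 574 (59.9%) the canyon ran through the LAD-free sequence on both sides as far as the next LADs, for 183 (31.9%) it did so on 1 side, and for 47 (8.19%) on neither. The LAD of 110 kb on chromosome 2 named above for its isolation was also the most deeply buried: its canyon, of 18.05 Mb at 181998801 to 200048699, went 8.53 Mb beyond one edge and 9.41 Mb beyond the other. The next in depth were a LAD of 1090 kb on chromosome 13 at 85260001 to 86350000, with overhangs of 6.32 and 8.67 Mb, and one of 160 kb at 66150001 to 66310000 on the same chromosome, with 6.30 and 9.05 Mb.

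**Figure D3:**
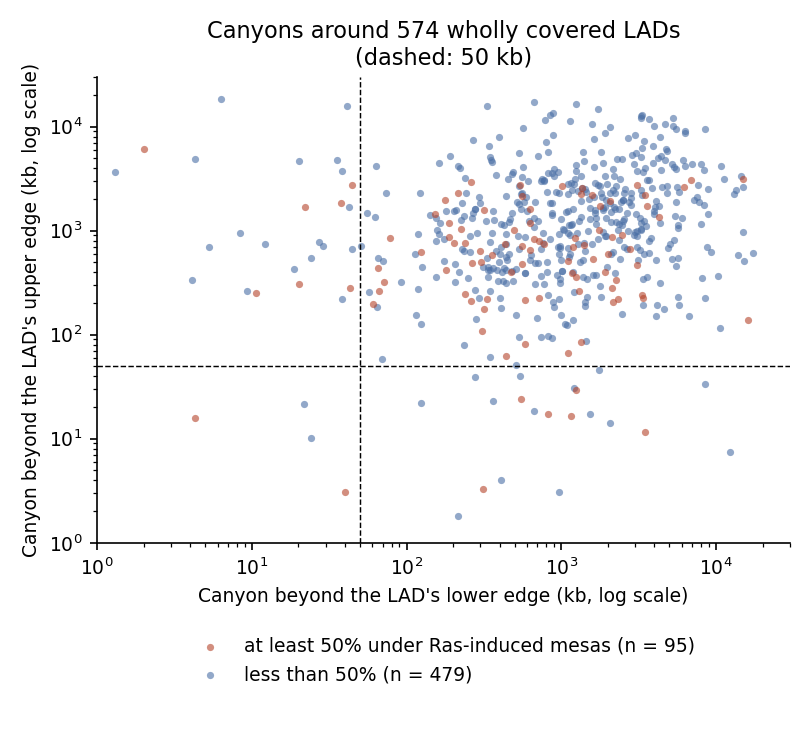
Reach of the surrounding canyon beyond the lower and the upper edge of each of 574 completely covered LADs, in kb on log scales, with the 50 kb flank dashed. Red points are the 95 LADs at least 50% under Ras-induced H3K4me3 mesas and blue points the remaining 479; most points lie above 50 kb on both axes, 524 of 574.

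Few canyons held many of these LADs. Of 1365 autosomal canyons, 278 contained at least 1 whole LAD: 161 contained 1, 85 contained 2 to 4 and 32 contained 5 or more. Those 32 held 206 of the 574 (35.9%). The canyons with a whole LAD had a median length of 1702 kb and those without one 51.6 kb. The fullest canyon, of 12.5 Mb on chromosome 1 at 183665001 to 196147499, contained 12 LADs, and the canyons of 18.05 Mb on chromosome 2 and of 16.1 Mb on chromosome 13 at 78938801 to 95015699 contained 10 each. Of these canyons 62.8%, 57.0% and 78.0% was LAD. Only 47 of the 161 canyons with 1 whole LAD touched no other LAD.

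The other 240 canyon-covered LADs did not lie completely inside 1 canyon. They had a median length of 340 kb and a median cover of 90.4%. Cover was at least 90% but not complete in 121 of them, so many came close to being swallowed. The LAD of 640 kb on chromosome 1 at 183400001 to 184040000, for example, had 99.9% under 2 canyons. Canyons that nearly touch were not joined, so this split depends in part on how canyons were called. In 212 of the 240 (88.3%) the main canyon crossed 1 edge and ended inside the LAD, at the lower-coordinate edge in 111 (46.3%) and the upper one in the rest. In 28 (11.7%) the main canyon lay wholly within the LAD. A second canyon was present in 123 (51.3%), and up to 5 canyons met in 1 LAD. In 30 of the 814, which is what remains after the 784 above, no single canyon reached 50%. An example is the LAD of 1230 kb on chromosome 2 at 236390001 to 237620000, where 3 canyons together covered 77.3% and the longest share was 38.9%.

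Each LAD was cut into 10 equal steps to follow cover across its edge. In canyon-covered LADs canyon cover was 95.8% in the central steps, 91.4% in the outermost steps, 88.5% in the first 50 kb outside and 74.9% at 450 to 500 kb. For the other LADs it was 1.43%, 11.2%, 15.1% and 23.4% at the same places. Both curves are set in part by the choice of LADs. Ras-induced H3K4me3 mesas, which come from other libraries, covered 20.8% of the central steps of canyon-covered LADs, 16.4% of the outermost steps and 17.0% of the first 50 kb outside; at the other LADs the values were 36.5%, 27.5% and 19.7%. Replicative H3K4me3 mesas covered 12.5%, 8.87% and 6.25% at canyon-covered LADs, and 27.2%, 21.98% and 10.8% at the other LADs. Across the edge, Ras-induced cover thus fell at the other LADs but not at canyon-covered LADs. Replicative cover fell at both, by less at canyon-covered LADs. No mesa was shorter than 500.999 kb, and 76.7% of canyon-covered and 38.8% of other LADs were shorter than that. Mesas can run past both edges of such LADs. The steps were not compared within classes of length and were not tested.

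A minority of canyon-covered LADs lay under H3K4me3 gains. By Ras-induced mesas 167 of 814 (20.5%) were covered to at least 50%, against 26.2% of all autosomal LADs and 30.2% of the other LADs. By replicative mesas 79 (9.71%) were, against 18.5% of all autosomal LADs and 24.6% of the other LADs. By both lists 51 were (6.27%, against 11.6% of all autosomal LADs), and by either list 195 (24.0%, against 33.1%). Most met no mesa. Of the 814, 606 (74.4%) met no Ras-induced mesa, against 63.7% of all autosomal LADs, and 719 (88.3%) met no replicative mesa, against 73.0%. Ras-induced mesas covered 103 canyon-covered LADs completely (12.7%) and 85 other LADs (7.16%), against 9.40% of all autosomal LADs, and covered a further 105 canyon-covered LADs in part. Replicative mesas covered 38 canyon-covered LADs completely (4.67%) and 36 other LADs (3.03%), against 3.70% of all autosomal LADs. They covered a further 57 canyon-covered LADs in part. The shortest mesa, of 500.999 kb, was longer than 76.7% of canyon-covered and 38.8% of other LADs. Complete cover therefore depends on LAD length, and it was not compared within classes of length. Neither list touched 573 canyon-covered LADs (70.4%) and 547 other LADs (46.1%), against 56.0% of all autosomal LADs. In base pairs, 19.4% of canyon-covered LADs and 33.9% of the other LADs were under Ras-induced mesas, and 11.1% of canyon-covered LADs and 26.99% of the other LADs under replicative mesas.

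Among canyon-covered LADs the Ras-induced subset was larger than the replicative one. At least 50% under Ras-induced mesas alone were 116 (14.3%), close to the 14.6% of all autosomal LADs, and under replicative mesas alone 28 (3.44%), against 6.90% of all. The Ras-induced number was higher on 17 of 22 autosomes, equal on 5 and lower on 0, so it did not rest on 1 chromosome; chromosome 1 had 14 LADs of the Ras-induced and 3 of the replicative subset, chromosome 6 had 12 and 3, and chromosome 2 had 22 and 13. This order was not particular to canyon-covered LADs. Over all autosomal LADs 525 were at least 50% under Ras-induced and 371 under replicative mesas, and among the other LADs 358 and 292. The Ras-induced list is the larger of the pair, with 674 Mb of autosomal mesas against 452 Mb. The H3K27me3 canyons were not mapped in Ras-induced cells. The LADs under both lists were 30.5% of the Ras-induced subset and 64.6% of the replicative subset. Among the other LADs, 182 were under both, which was 50.8% of those in the Ras-induced and 62.3% of those in the replicative subset.

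The order of canyon-covered and other LADs in H3K4me3 cover was not the same at all lengths. It was reversed under Ras-induced mesas in the shortest class, where 54 of 314 canyon-covered LADs (17.2%) and 22 of 189 other LADs (11.6%) were covered to at least 50%, against 15.1% of all LADs of that length. At 200 to 500 kb the shares were 22.6% of canyon-covered and 25.8% of other LADs (24.1% of all LADs of that length). At 500 to 1000 kb they were 30.2% of canyon-covered and 39.2% of other LADs (36.6% of all). From 1000 kb upwards 9 of 79 canyon-covered LADs (11.4%) and 155 of 445 other LADs (34.8%) were covered, against 31.3% of all. Under replicative mesas the canyon-covered LADs had the lower share in each class. The shares were 5.10% of canyon-covered and 8.99% of other LADs under 200 kb (6.56% of all), and 10.2% of canyon-covered and 13.9% of other LADs at 200 to 500 kb (11.9% of all). At 500 to 1000 kb they were 19.8% of canyon-covered and 38.1% of other LADs (32.8% of all), and from 1000 kb upwards 11.4% of canyon-covered and 29.0% of other LADs (26.3% of all). The differences were wider among LADs of 500 kb and more than among shorter ones. By chromosome, the share of canyon-covered LADs was below that of the other LADs on 18 of 22 autosomes for Ras-induced and 20 of 22 for replicative mesas. These counts pool LADs of all lengths, so they are not matched for length. Some rest on few canyon-covered LADs, such as 4 on chromosome 21 and 8 each on chromosomes 16 and 22.

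**Figure D4:**
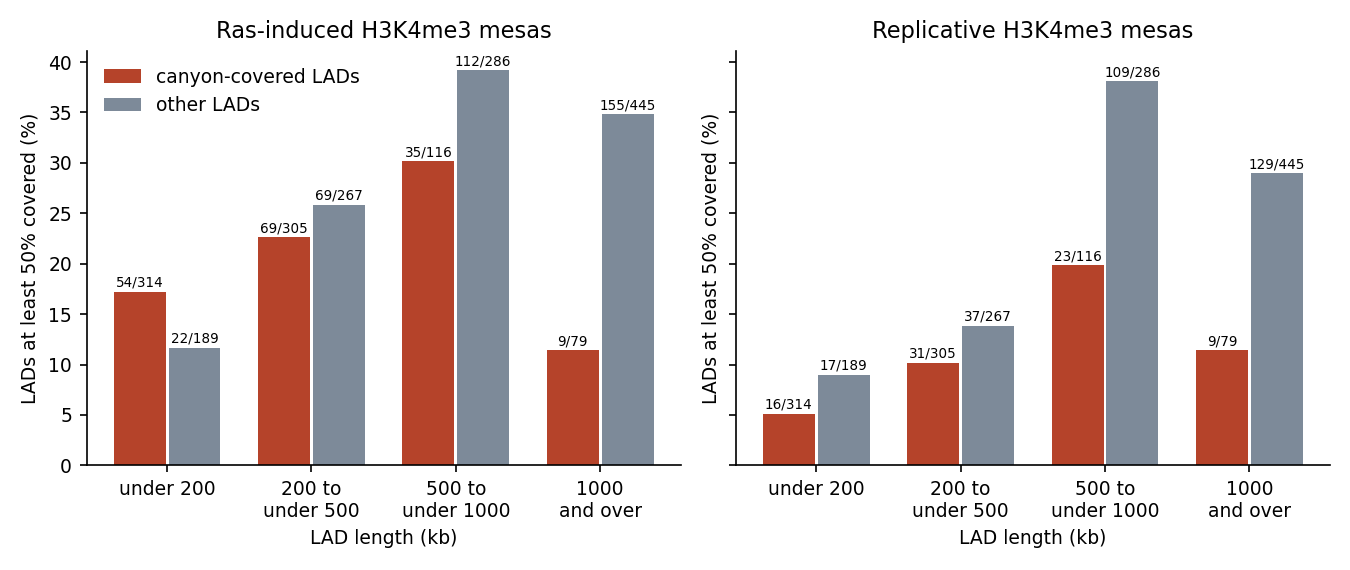
Percentage of LADs covered to at least 50% by Ras-induced (left) and replicative (right) H3K4me3 mesas, by LAD length in kb, for canyon-covered LADs and the other LADs; bars start at 0 and the numbers above them are LADs covered of LADs in the class. In the shortest class Ras-induced mesas covered 54 of 314 canyon-covered LADs and 22 of 189 other LADs, and in the longest class 9 of 79 canyon-covered LADs and 155 of 445 other LADs.

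Within the canyon-covered LADs, the H3K4me3 subsets took lower shares of the completely covered LADs and of the canyons with many LADs; these differences were not tested. Of those only partly covered by a canyon or by several, 72 of 240 (30.0%) were at least 50% under Ras-induced mesas, and of those completely inside 1 canyon 95 of 574 (16.6%). Over all autosomal LADs this share was 26.2%. At least 50% under replicative mesas were 32 of the partly covered (13.3%) and 47 of the completely covered LADs (8.19%), against 18.5% of all autosomal LADs. The partly covered LADs were also longer, with a median of 340 kb against 230 kb, and the shares were not compared within classes of length. The split into partly and completely covered LADs depends in part on how canyons were called. Among completely covered LADs, those sharing their canyon with at least 4 others were in the Ras-induced subset in 18 of 206 cases (8.74%) and in the replicative subset in 10 (4.85%). Those that were the only whole LAD in their canyon were in the Ras-induced subset in 38 of 161 cases (23.6%) and in the replicative subset in 17 (10.6%). The 3 longest runs of canyon-covered LADs, of 16, 15 and 13, held 0 LADs of either subset. Next came 2 runs of 12. The run on chromosome 1 at 21530001 to 27500000, with 4 main canyons, held 4 LADs of the Ras-induced subset and 0 of the replicative one. The run on chromosome 11 at 67050001 to 77420000, with 9 main canyons, held 5 LADs of the Ras-induced subset and 2 of the replicative one. The LADs in 1 canyon or 1 run share their surroundings and are not independent of each other.

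The subsets were also counted by distance to the neighbouring LAD. Of the 130 canyon-covered LADs with the nearer neighbour at least 500 kb away, 30 (23.1%) were in the Ras-induced subset and 19 (14.6%) in the replicative one. Of the 153 with a neighbour closer than 100 kb, 31 (20.3%) and 12 (7.84%) were. Over all autosomal LADs at any distance, the shares were 26.2% for Ras-induced and 18.5% for replicative mesas. The other LADs were not counted by distance, and the differences were not tested. The median distance to the nearer LAD was 220 kb in the Ras-induced subset, 260 kb in the replicative subset and 320 kb in LADs under both, against 200 kb in the 619 canyon-covered LADs in neither.

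By median the LADs of both subsets were longer than the rest. The median length was 300 kb in the Ras-induced subset (quartiles 165 and 510 kb) and 430 kb in the replicative subset (quartiles 230 and 745 kb), against 240 kb in the canyon-covered LADs in neither. The main canyon of each LAD had a median length of 1380 kb in the Ras-induced subset and 1402 kb in the replicative subset, against 2626 kb in those in neither. A canyon swallowed the LAD with 50 kb on both sides in 80 of 167 (47.9%) of the Ras-induced subset. The share was 38 of 79 (48.1%) in the replicative subset and 69.3% of those in neither. Among all canyon-covered LADs it was 70.4% under 200 kb and 62.6% at 200 to 500 kb. It was 55.2% at 500 to 1000 kb and 60.8% from 1000 kb upwards. The subsets were not compared with the rest within classes of length, and the differences were not tested.

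The H3K4me3 mesas over these LADs were broader than most of the LADs themselves. No autosomal mesa of either list was shorter than 500.999 kb, and 624 of the 814 canyon-covered LADs (76.7%) were shorter than that. The 167 LADs of the Ras-induced subset lay under 143 mesas with a median length of 707 kb, and the median LAD had 36.0% of the length of its mesa; 103 LADs (61.7%) were inside their mesa and 11 mesas were inside their LAD. The 79 LADs of the replicative subset lay under 72 mesas with a median length of 675 kb, and the median LAD had 58.0% of the mesa's length. Of the Ras-induced cases, the mesa touched no other LAD in 90, only further canyon-covered LADs in 59 and a LAD outside the set in 18. For 56 (33.5%) of the Ras-induced and 33 (41.8%) of the replicative cases the mesa lay completely inside the canyon that covered most of the LAD.

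Where a canyon left part of the LAD free, H3K4me3 mesa cover was counted in both parts. In the 240 partly covered LADs, 96.2 Mb were under canyons and 20.1 Mb were not. Ras-induced mesas covered 26.2% of the canyon part and 29.9% of the free part, and replicative mesas 15.7% and 18.3%. In the 493 other LADs touched by a canyon, Ras-induced mesas covered 28.5% of the canyon part and 33.5% of the free part, and replicative mesas 19.2% and 27.5%. No mesa was shorter than 500.999 kb, and the 240 partly covered LADs had a median length of 340 kb. A single mesa can therefore span the canyon part and the free part together. The lists are too coarse to separate the parts, and nothing is read from these values.

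Single LADs show the range. The longest in the Ras-induced subset, of 1830 kb on chromosome 2 at 198080001 to 199910000, lay wholly inside the canyon of 18.05 Mb named above, 139 kb from its end, with 50.8% under Ras-induced and 0% under replicative mesas. A LAD of 1700 kb on chromosome 19 at 10960001 to 12660000 had 58.4% under canyons, 81.7% under Ras-induced and 0% under replicative mesas. In the replicative subset, a LAD of 1360 kb on chromosome 9 at 134220001 to 135580000 had 76.0% under replicative and 46.1% under Ras-induced mesas. One of 1290 kb on chromosome 10 at 15450001 to 16740000 had 99.8% under 4 canyons, 55.2% under replicative and 0% under Ras-induced mesas.

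The 5 longest LADs under both H3K4me3 lists had between 59.1% and 99.9% of their length under canyons. The LAD of 1230 kb on chromosome 2 at 236390001 to 237620000 had 80.7% under Ras-induced and 71.3% under replicative mesas. One of 1110 kb on chromosome 7 at 135110001 to 136220000, with 59.1% under canyons, had 51.4% under Ras-induced and 88.1% under replicative mesas. A LAD of 1060 kb on chromosome 19 at 47600001 to 48660000 had 98.1% under 4 canyons, 61.8% under Ras-induced and 90.1% under replicative mesas. One of 1050 kb on chromosome 4 at 152410001 to 153460000 had 91.5% under 3 canyons, 53.9% under Ras-induced and 52.3% under replicative mesas. One of 950 kb on chromosome 13 at 107330001 to 108280000 had 99.9% under 2 canyons, 82.8% under Ras-induced and 100% under replicative mesas. Of the isolated LADs, the 730 kb one on chromosome 2 was completely under its canyon and under Ras-induced mesas, and 97.4% under replicative mesas; the 170 kb one on chromosome 15 was 100% under all 3 lists; the 0.30 Mb one on chromosome 9 was 98.3% under Ras-induced and 0% under replicative mesas; and the 110 kb one on chromosome 2 met neither. The longest canyon-covered LAD, the 8.98 Mb LAD of chromosome 5, had 11.4% under Ras-induced and 0% under replicative mesas.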

How the data were processed

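Analysis began from 5 deposited region lists that serve the series as a whole: LADs, H3K27me3 canyons, H3K27me3 mesas, and H3K4me3 mesas of Ras-induced and of replicative senescence. Per the submitters' processing notes, the authors aligned reads with Bowtie 0.12.5 to hg18, the build of all coordinates here. Lamin B1 windows were merged into LADs and the replicative H3K4me3 list combines regions of more H3K4me3, per the file headers. Not given in the sources used here are the program that called regions, its cut-offs, the role of the H3 libraries and any pooling. How the regions were called can set their least length. Region starts lie on grids of 10 kb (LADs), 1000 bp (H3K4me3) and 100 bp (H3K27me3). The shortest H3K4me3 mesa, of 500.999 kb, was far longer than its grid step.

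Cover of a LAD is the percentage of its base pairs under a list, with Python 3.11.15, numpy 2.4.6 and pandas 2.3.3 and figures by matplotlib 3.10.9; the code was tested on simulated data. Starts are printed 1-based. Distances run between edges of consecutive LADs of a chromosome, also over centromeres. Named LADs were the longest, most isolated, most deeply covered, the longest under each H3K4me3 list, and those next to 50% cover. The LADs, lists and rules were chosen with earlier results of these data known. Gene names and sequences were not used, because no hg18 annotation or genome was at hand.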

Additional observations from a re-analysis of the deposited data

How the results depend on the processing

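In all, 12 results were recomputed under the alternatives, giving 348 values, of which 13 moved beyond the exact 95% binomial interval of the main share or median (for the count, beyond 1.5 times). That interval covers counting of regions only. Of the 348 values, 264 came from omitting 1 autosome at a time, and 0 of these moved. With membership at 75% canyon cover, 37.9% of autosomal LADs were canyon-covered, 75.7% of them inside 1 canyon and 69.1% with both flanks; at 25% cover the values were 45.0%, 63.7% and 58.2%. Flanks of 100 kb gave 60.9%. Asking for H3K4me3 cover of at least 75% put 17.2% of canyon-covered and 21.1% of other LADs under Ras-induced mesas, and 15.1% of other LADs under replicative mesas; at 25% the values were 23.6%, 38.6% and 33.5%. Restriction to canyons or LADs of at least 50 or 100 kb, joining LADs up to 20 kb apart (there were none, since no gap was under 60 kb), adding chromosomes X and Y, and omitting each autosome moved none of the 12 beyond that interval. Canyon-covered LADs were shorter in 29 of 29 settings, farther from the nearest LAD in 30 of 30, and lower in the Ras-induced and replicative shares in 31 of 31, the main setting included; within LADs under 200 kb the Ras-induced share was higher, at 17.2% against 11.6%. Most of these settings omitted 1 autosome each and shared most LADs, so they are not independent of each other. No paired analysis was possible because the lists hold no value per sample. Depth is unknown.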
